A study of Mus musculus with 15 samples.

Results

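The genes described here are 10 components of extracellular proteolysis, measured in the mouse macrophage-like line RAW264.7: the matrix metalloproteases (MMPs) Mmp2, Mmp9, Mmp12, Mmp13 and Mmp14, the tissue inhibitors of metalloproteases (TIMPs) Timp1, Timp2 and Timp3, and the disintegrin metalloproteases Adam8 and Adam17. Their 19 probes were taken by gene name from the 56605 noncontrol probes of a one-colour Agilent array. Of these, 14 probes for 9 genes were tested, among 28508 tested probes in all, because in 1 group or more the scanner found them well above background on 2 or 3 of its 3 arrays. Both the 10 genes and the lists of related genes below were chosen with earlier results of these data known.

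The 15 arrays form 5 groups of 3 replicates. The control group, called vehicle, is labelled with the solvents EtOH and DMSO. The other groups received dexamethasone (DEX), fluticasone furoate (FF), both synthetic glucocorticoids, or one of 2 compounds known here by the codes VSG158 and VSG159. Cells had 100 nM of a steroid for 1 h, then LPS, the endotoxin of Gram-negative bacteria and a strong macrophage activator, at 1 ug per ml for 16 h. The protocol with LPS is attached to all 15 samples, but the vehicle labels name solvents alone, so every comparison with vehicle assumes that those cells received LPS as well. The labels do not tie a solvent to a compound. They give 3 replicates where the series text speaks of duplicates, and nothing says that the replicates were separate cultures, so p-values measure a spread between samples that may be technical.

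MMPs are zinc-dependent endopeptidases made as inactive precursors that cleave collagens, elastin and other matrix proteins once activated. TIMPs bind the active site and block it, and macrophages release both proteases and inhibitors during inflammation. ADAM proteases sit in the membrane and release the outer part of other membrane proteins, ADAM17 being the main sheddase of TNF. The arrays measured RNA, so zymogen activation, secretion and enzyme activity are outside these data, and in bulk RNA fewer expressing cells and less RNA per cell cannot be told apart.

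In this text a level is the log2 processed signal of a probe minus the 75th percentile of log2 signals on its array, and a signal is the scanner's processed intensity before that scaling. A probe was called in a comparison when its Benjamini-Hochberg adjusted p, over all tested probes, was under 0.05 in a limma fit of all 15 arrays. Some probes passed the background filter in vehicle only, or with steroids only, and so were tested through the side where they were high. Their calls against vehicle and in the F test are descriptions and no support. Among genes named below these include Mmp12, Mmp17, Mmp25, Tnc, Col4a2, Eln, Col1a2, Cd3d and Mertk. The 75th percentile of the signal was 695 to 1223 on the 15 arrays, and 39.6% to 50.4% of an array's noncontrol spots passed as well above background, 0 of them saturated. The number of arrays limits the precision. The glucocorticoid target Fkbp5 was higher than vehicle by 3.37 to 3.60 (log2), and Il1b and Il6 were lower with each steroid. All 12 macrophage markers were above background in every group, with a summed level, on the linear scale, of 970.1 to 1180 per array. Of 8 fibroblast markers, Col1a1, Col3a1, Pdgfra, Pdgfrb and Thy1 were not above background on any array. Of 5 epithelial markers, 0 passed in any group. Of 8 neutrophil or mast cell markers, Elane and S100a8 were above background in every group, and of 5 T cell markers Cd3e and Cd4 were. The summed level of the T cell markers was 25.9 to 43.4 on the vehicle arrays and 27.2 to 116 on the steroid arrays, and that of the neutrophil or mast cell markers 132 to 142 and 83.2 to 188. Of 9 osteoclast markers, 8 were above background in each group. The part of these cell types in the results was not tested.

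The arrays lay on 2 slides. Slide 1 held vehicle, VSG158 and VSG159 replicates 1 and 2, and slide 2 held VSG159 replicate 3, FF and DEX. DEX and FF therefore shared no slide with vehicle, and VSG159 alone links the slides. VSG159 replicates 1 and 2 had 668 and 639 outlier spots and 75th percentiles of 1170 and 1220. Replicate 3, on slide 2, had 116 outlier spots and a 75th percentile of 848. Within slide 1, VSG158 replicates 1 to 3 had 140, 165 and 960 outlier spots. A slide term therefore cannot be told apart from such differences between the VSG159 arrays. Each group also filled its own positions on a slide. For member probes, values with slide as a fixed block are given below where they end a call. They are also given where they change a fold by more than 1.5 times. The lists of related genes and the markers were read only from the fit with group as the single term. Their DEX and FF differences from vehicle cannot be told apart from slide. A fit with slide and array position together, added after the data were seen, left 0 member calls for DEX, 3 for FF, 8 for VSG158 and 3 for VSG159 against vehicle. The share of all tested probes called in that fit is not given here. A lost call in it is therefore no result about the members.

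Most of the change lay in 3 genes. Against vehicle, Mmp13 and Timp1 fell with each of the 4 steroids, and Mmp12 fell from a low level to below background. Mmp9 rose with each steroid, by less than 1 log2 unit, and 1 probe of Adam8 fell with each. The test called 7 of 14 member probes with DEX, 2 higher and 5 lower, where 47.1% of all tested probes were called, 21.5% higher and 25.6% lower. It called 7 with FF, 2 higher and 5 lower, against 43% of all probes (20.4% higher and 22.7% lower). It called 8 with VSG158, 2 higher and 6 lower, against 45.6% of all probes (18.9% and 26.7%). It also called 8 with VSG159, 2 higher and 6 lower, against 44.9% (18.4% and 26.5%). The 4 comparisons share the vehicle arrays. The members' shares are near these backgrounds, so their number is no result about them; what sets Mmp13 and Timp1 off is the size of their change beside a median absolute difference of 0.47 to 0.53 over all probes. An F test over the 5 groups called 8 of 14 member probes, where it called 46.3% of all probes: both probes of Mmp9 and of Adam8, those of Mmp12, Mmp13 and Timp1, and 1 of Timp2. The median member difference was -0.30, -0.40, -0.28 and -0.18 with DEX, FF, VSG158 and VSG159, where the median over all tested probes was -0.03, -0.07, -0.10 and -0.11.

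**Figure D1:**
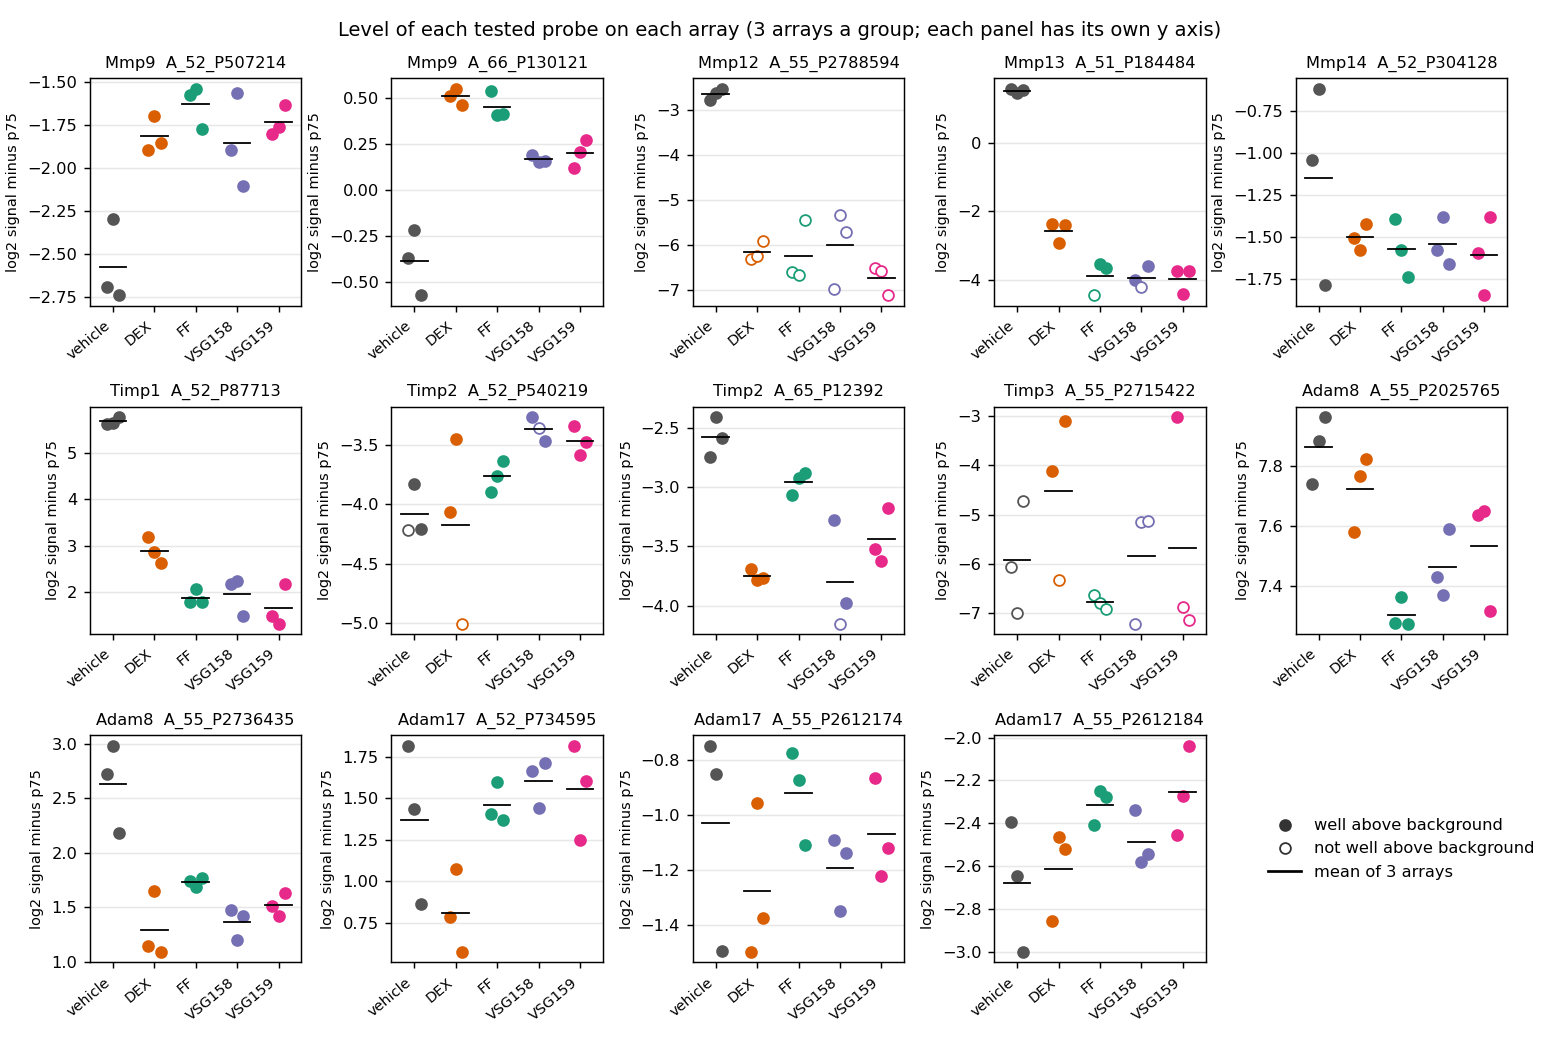
Level (log2 signal after subtracting p75, the 75th percentile of its array; y axis) of each of the 14 tested probes on each of the 15 arrays, by group (x axis); filled points are well above background, open points are not, and the line is the mean of 3 arrays. The 3 vehicle arrays stand above all 12 steroid arrays for Mmp13, Timp1 and the Mmp12 probe, and below all 12 for both Mmp9 probes.

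Mmp13 encodes collagenase 3, which cleaves fibrillar collagens. Its probe A_51_P184484 (accession NM_008607 in the array design; mm9 chr9:7282762-7282821, plus strand) gave signals of 2483, 1941 and 2013 in vehicle. The DEX arrays gave 172, 120 and 159, the FF arrays 42.2, 69.3 and 74.3, the VSG158 arrays 51.9, 40.2 and 101, and the VSG159 arrays 87.0, 57.5 and 63.0. All vehicle arrays were thus above all steroid arrays, and all DEX arrays above those of the other 3 compounds. FF and VSG158 each had 1 array not well above background, so their falls rest partly on signals near the detection limit.

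Relative to vehicle the Mmp13 level fell by 4.08 ± 0.26 (log2, SE) with DEX, which is 16.9-fold (adjusted p = 2.86e-07). With the same SE, the differences were -5.39 with FF, -5.45 with VSG158 and -5.48 with VSG159, which is 42.0-, 43.7- and 44.7-fold (adjusted p = 1.95e-08, 2.04e-08 and 1.79e-08) lower. Each alternative setting kept these calls except slide with position for DEX (-5.39, adjusted p = 0.148). On slide 1 alone, where vehicle and VSG158 lay together, the VSG158 difference was -5.45.

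Mmp12 encodes macrophage elastase, a protease made mainly by macrophages that degrades elastin. Probe A_55_P2788594 (NM_001320076; mm9 chr9:7358559-7358618) had signals of 121, 115 and 120 in vehicle, all 3 well above background. It was not well above background on any of the 12 steroid arrays, whose signals ran from 6.15 to 23.5. Mmp12 was therefore at least 3.10-fold lower with DEX, 3.79-fold with FF, 2.70-fold with VSG158 and 4.46-fold with VSG159. For these bounds each steroid array was set to its dimmest signal that counted as well above background, or to the Mmp12 signal if that was higher. The bounds were not tested. The probe itself was tested only because the vehicle arrays were above background, so the p-values that follow are descriptions. The fitted differences, with signals below background kept as measured, were -3.50, -3.57, -3.34 and -4.08 in the same order (adjusted p = 2.33e-05, 1.55e-05, 2.82e-05 and 5.29e-06). These differences shrank to between -1.18 and -1.28 with normexp background correction, still called. The fit with slide and position lost the DEX call (adjusted p = 0.138). No order among the steroids can be read for Mmp12. The other Mmp12 probes, A_51_P313674 and A_55_P2024803, were not well above background on any of the 15 arrays and were not tested.

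Mmp13 and Mmp12 are neighbours on chromosome 9, and both have a match to the AP-1 motif just before a transcription start. Collagenase promoters are a textbook example of AP-1 activation and of repression by the glucocorticoid receptor, which is why the motif was searched. The windows below are the 250 bases before a start in the gene's direction (RefSeq, GRCm38.p6, plus strand), shown because these are the 3 members that fell most; capitals mark TGANTCA.
Mmp13, chr9:7272264-7272513: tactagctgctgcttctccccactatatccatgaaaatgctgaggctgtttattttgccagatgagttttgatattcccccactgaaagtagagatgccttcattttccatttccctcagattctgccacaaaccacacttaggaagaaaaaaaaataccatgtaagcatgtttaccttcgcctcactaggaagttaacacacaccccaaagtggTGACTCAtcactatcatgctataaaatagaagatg
Mmp12, chr9:7347124-7347373: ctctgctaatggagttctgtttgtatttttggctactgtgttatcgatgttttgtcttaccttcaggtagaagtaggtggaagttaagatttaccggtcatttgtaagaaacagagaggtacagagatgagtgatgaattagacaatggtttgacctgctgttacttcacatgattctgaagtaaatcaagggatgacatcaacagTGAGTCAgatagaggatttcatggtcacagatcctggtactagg
Timp1, chrX:20869916-20870165: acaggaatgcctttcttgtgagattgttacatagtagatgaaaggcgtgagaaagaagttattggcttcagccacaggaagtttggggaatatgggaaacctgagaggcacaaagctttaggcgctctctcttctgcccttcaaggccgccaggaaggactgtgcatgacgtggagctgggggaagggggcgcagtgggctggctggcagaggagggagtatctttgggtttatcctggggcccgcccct
The Mmp13 match, TGACTCA, begins 35 bases before the start and the Mmp12 match, TGAGTCA, 44 bases before it. Promoter entries existed for 8 of the 10 genes, 9 windows in all, since Mmp12 has a pair of starts; Mmp2 and Mmp9 had none. Of the 9 windows, 2 held TGANTCA, as did 6.75% of 32851 windows over all genes, with both strands searched (the motif equals its own reverse complement). The window before the other Mmp12 start held no match, nor did the Timp1 window. TGTTCT, one arm of a glucocorticoid receptor element, was in 0 of the 9 windows on either strand and in 16.1% of all windows, so no match of one motif overlaps one of the other. These are matches of letters in a short window and not measurements of binding, and their relation to the falls was not tested.

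Mmp9 encodes gelatinase B, which cleaves denatured collagen and collagen IV, and it moved the other way. Probe A_66_P130121 (NM_013599; mm9 chr2:164779091-164780300) had levels of -0.37, -0.22 and -0.57 in vehicle. The levels were 0.51, 0.55 and 0.46 with DEX, 0.54, 0.40 and 0.41 with FF, 0.19, 0.15 and 0.16 with VSG158, and 0.12, 0.20 and 0.27 with VSG159. All steroid arrays lay above all vehicle arrays, and all DEX and FF arrays above all VSG158 and VSG159 arrays.

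The Mmp9 rise on this probe was 0.89 ± 0.095 (log2, SE) for DEX, 0.84 for FF, 0.55 for VSG158 and 0.58 for VSG159, or 1.86-, 1.79-, 1.47- and 1.50-fold (adjusted p = 1.33e-05, 1.78e-05, 0.000478 and 0.000309). The second probe, A_52_P507214 (chr2:164780620-164780679), rose by 0.76 ± 0.15, 0.95, 0.72 and 0.84 in the same order (adjusted p = 0.00145, 0.00028, 0.00199 and 0.000652). On the second probe the steroid groups overlapped one another. The difference was above 0 in each setting tried for both probes, from 0.46 to 1.24. Centring arrays on their median ended the VSG158 calls (adjusted p = 0.112 and 0.0618), and slide as a fixed block ended the second probe's DEX call (0.61, adjusted p = 0.101). The fit with slide and position ended all calls of both probes for DEX, FF and VSG159, and neither for VSG158.

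Mmp2 encodes gelatinase A, the relative of Mmp9 that many stromal cells make. Its probe A_51_P341736 (NM_008610; mm9 chr8:95376840-95376899) was not well above background on any array, with signals of 5.84 to 18.5, and was not tested.

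Mmp14 encodes a membrane-anchored MMP that activates the Mmp2 precursor. Probe A_52_P304128 (NM_008608; mm9 chr14:55058775-55058834) gave signals of 408, 466 and 202 in vehicle, 314, 304 and 314 with DEX, and 270 to 388 over the other 9 arrays. Vehicle replicate 3 was the lowest of all 15 signals. The differences from vehicle were -0.35, -0.42, -0.39 and -0.46 (log2, SE 0.24) with DEX, FF, VSG158 and VSG159, and none was called (adjusted p = 0.136 to 0.242). Without vehicle replicate 3 all 4 were called, at -0.67, -0.74, -0.71 and -0.77 (adjusted p = 0.00874, 0.00531, 0.00646 and 0.00383). The sign turned in the fit with slide and position, without a call.

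Timp1 encodes a secreted inhibitor of most MMPs. Its probe A_52_P87713 (NM_001044384; mm9 chrX:20451675-20451733) gave 41340, 35762 and 37772 in vehicle. The signals were 8091, 6613 and 5214 with DEX, 3164, 3356 and 3247 with FF, 3784, 3469 and 3431 with VSG158, and 3289, 3060 and 3836 with VSG159. Vehicle stood above all steroid arrays, and DEX above the other 3 compounds. The VSG159 signals spanned those of FF and VSG158.

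The Timp1 level fell with each steroid. Its difference from vehicle was -2.78 ± 0.24 (log2, SE) for DEX, -3.80 for FF, -3.71 for VSG158 and -4.01 for VSG159, or 6.87-, 13.9-, 13.1- and 16.1-fold lower (adjusted p = 2.84e-06, 1.59e-07, 2.05e-07 and 1.11e-07). With slide as a fixed block the differences were -3.55 with DEX and -4.57 with FF, both called. On slide 1 alone they were -3.71 with VSG158 and -4.27 with VSG159. The fit with slide and position lost the DEX call (-2.10, adjusted p = 0.387).

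Timp2 encodes an inhibitor that also takes part in Mmp2 activation with Mmp14. Its probes disagreed. A_65_P12392 (NM_011594; mm9 chr11:118171964-118178741, minus strand) had levels of -2.75, -2.41 and -2.59 in vehicle, -3.69, -3.78 and -3.76 with DEX, -3.07, -2.93 and -2.88 with FF, -3.28, -4.15 and -3.98 with VSG158, and -3.52, -3.62 and -3.18 with VSG159. The vehicle arrays were above all steroid arrays, and the FF arrays lay between vehicle and the rest. VSG158 replicate 2, at a signal of 41.4, was not well above background, while the other 14 arrays were. The level fell with DEX, VSG158 and VSG159, with differences of -1.16 ± 0.20, -1.22 and -0.86 (log2, SE; adjusted p = 0.000468, 0.000291 and 0.00346). The FF difference was -0.38 (adjusted p = 0.148). With normexp the DEX difference shrank to -0.47 and the VSG158 difference to -0.59, both still called. The VSG159 call was lost with median centring (-0.78, adjusted p = 0.0916) and with normexp (-0.35, adjusted p = 0.072), and the fit with slide and position lost the calls of DEX and VSG159.

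The second Timp2 probe, A_52_P540219 (mm9 chr11:118163146-118163205), was not called with any steroid. Its differences were -0.09, 0.32, 0.72 and 0.62 (log2, SE 0.29) with DEX, FF, VSG158 and VSG159 (adjusted p = 0.826, 0.415, 0.0604 and 0.103). For VSG158 and VSG159 its sign was the opposite of the first probe's, and all 6 of those arrays lay above all vehicle arrays. On slide 1 alone both were called higher (0.72 and 0.62, adjusted p = 0.00772 and 0.0209). A direction for Timp2 as a gene cannot be given, and whether the probes differ beyond their dim signals was not tested.

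Timp3 encodes the inhibitor that binds the matrix and also blocks ADAM17. Probes A_51_P463765 and A_55_P2865447 (both NM_011595) were not well above background on any array and were not tested. Probe A_55_P2715422 (ENSMUST00000151134; mm9 chr10:85769407-85769466) was tested only because 2 of 3 DEX arrays, at 51.4 and 98.7, were above background. The third DEX array was at 11.3, VSG159 replicate 1 at 144, and the other arrays between 5.58 and 34.7. The differences from vehicle, -0.86 to 1.42 (log2, SE 1.1), were not called (adjusted p = 0.317 to 0.958). With slide as a fixed block they were 3.62 for DEX, 1.34 for FF, 0.09 for VSG158 and 0.98 for VSG159, again without a call, and the FF sign had turned. The Timp3 differences between compounds moved by more than 1.5 times under that block too, except FF against DEX, which lay on 1 slide. No direction can be given for Timp3.

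Adam8 encodes a membrane protease of myeloid cells that sheds adhesion receptors. Probe A_55_P2736435 (NM_007403; mm9 chr7:147171312-147171769, minus strand) had levels of 2.72, 2.98 and 2.18 in vehicle, and 1.09 to 1.77 on the 12 steroid arrays, with no overlap. It fell with each steroid, with differences of -1.34 ± 0.19 for DEX, -0.90 for FF, -1.27 for VSG158 and -1.11 for VSG159 (log2, SE; adjusted p = 0.000152, 0.0024, 0.000197 and 0.000521). The fit with slide and position lost the calls of DEX, FF and VSG159.

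The second Adam8 probe, A_55_P2025765 (NM_007403; mm9 chr7:147164873-147164932), moved less. Its difference with DEX was -0.14 and not called (adjusted p = 0.338). Its level fell with the other 3, by differences of -0.56 with FF, -0.40 with VSG158 and -0.33 with VSG159 (log2, SE 0.11; adjusted p = 0.00166, 0.0126 and 0.0338). The vehicle levels were 7.74, 7.88 and 7.96, DEX 7.58, 7.77 and 7.82, FF 7.28, 7.36 and 7.28, VSG158 7.43, 7.37 and 7.59, and VSG159 7.64, 7.65 and 7.32. The FF arrays lay below all vehicle and all DEX arrays. Before scaling, the vehicle signals were 169426 to 179638. Signals were higher on VSG159 replicates 1 and 2, at 233112 and 245373, and on VSG158 replicate 3, at 235897. On those arrays the level was below vehicle only after scaling. Signals were below vehicle on the other VSG158 and VSG159 arrays, at 121757 to 144577, and with FF, at 132520 to 145685. The FF call was lost with median centring (-0.51, adjusted p = 0.0859), with slide as a fixed block (-0.23, adjusted p = 0.318) and with slide and position (-0.79, adjusted p = 0.182). With slide as a fixed block the VSG159 call was lost too (-0.22, adjusted p = 0.11). The VSG158 call was lost in 6 of 30 settings and the VSG159 call in 15 of 30, so this probe's falls are less firm than those of the first.

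The probes of Mmp9, Timp2 and Adam8 that each cross a gap in the genome join separate genomic blocks. Their sequences, as given in the array design and written 5′ to 3′, are shown for comparison with the other probe of each gene. The other Timp2 probe gave a different answer. The other Adam8 probe fell less and was not called with DEX, and the other Mmp9 probe was called higher with each steroid too.
Mmp9 A_66_P130121: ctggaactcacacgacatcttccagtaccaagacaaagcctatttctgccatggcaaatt
Timp2 A_65_P12392: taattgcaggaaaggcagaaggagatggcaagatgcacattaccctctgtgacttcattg
Adam8 A_55_P2736435: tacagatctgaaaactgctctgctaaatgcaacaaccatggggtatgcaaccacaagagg
Of the 19 member probes, 4 cross such a gap; the fourth is the Mmp12 probe A_51_P313674, which was not above background. Exon numbers were not analysed here.

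Adam17 encodes the TNF sheddase. None of its probes was called with any steroid against vehicle. A_52_P734595 (NM_009615; mm9 chr12:21330545-21330604) had levels of 1.82, 1.43 and 0.87 in vehicle, 0.79, 1.07 and 0.57 with DEX, 1.40, 1.59 and 1.37 with FF, 1.66, 1.44 and 1.71 with VSG158, and 1.81, 1.25 and 1.60 with VSG159. Vehicle overlapped every steroid group. The DEX difference was -0.56 ± 0.22 (log2, SE, adjusted p = 0.0575), and the other 3 were 0.08 to 0.23. The DEX difference was called without vehicle replicate 3 (-0.81, adjusted p = 0.0065), with the deposited value table (-0.87, adjusted p = 0.00811) and in 2 further settings. The probes A_55_P2612174 and A_55_P2612184 gave differences of -0.25 to 0.11 and 0.07 to 0.43 (log2), with adjusted p of 0.0535 and above. The A_55_P2612184 difference for VSG159, 0.43, was called in 5 of 29 settings, among them quantile normalization (0.58, adjusted p = 0.012) and vehicle replicate 1 left out (0.57, adjusted p = 0.0184), and that for FF in 2 of 28. The A_55_P2612174 difference for DEX was called without vehicle replicate 3 (-0.48, adjusted p = 0.0471).

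**Figure D2:**
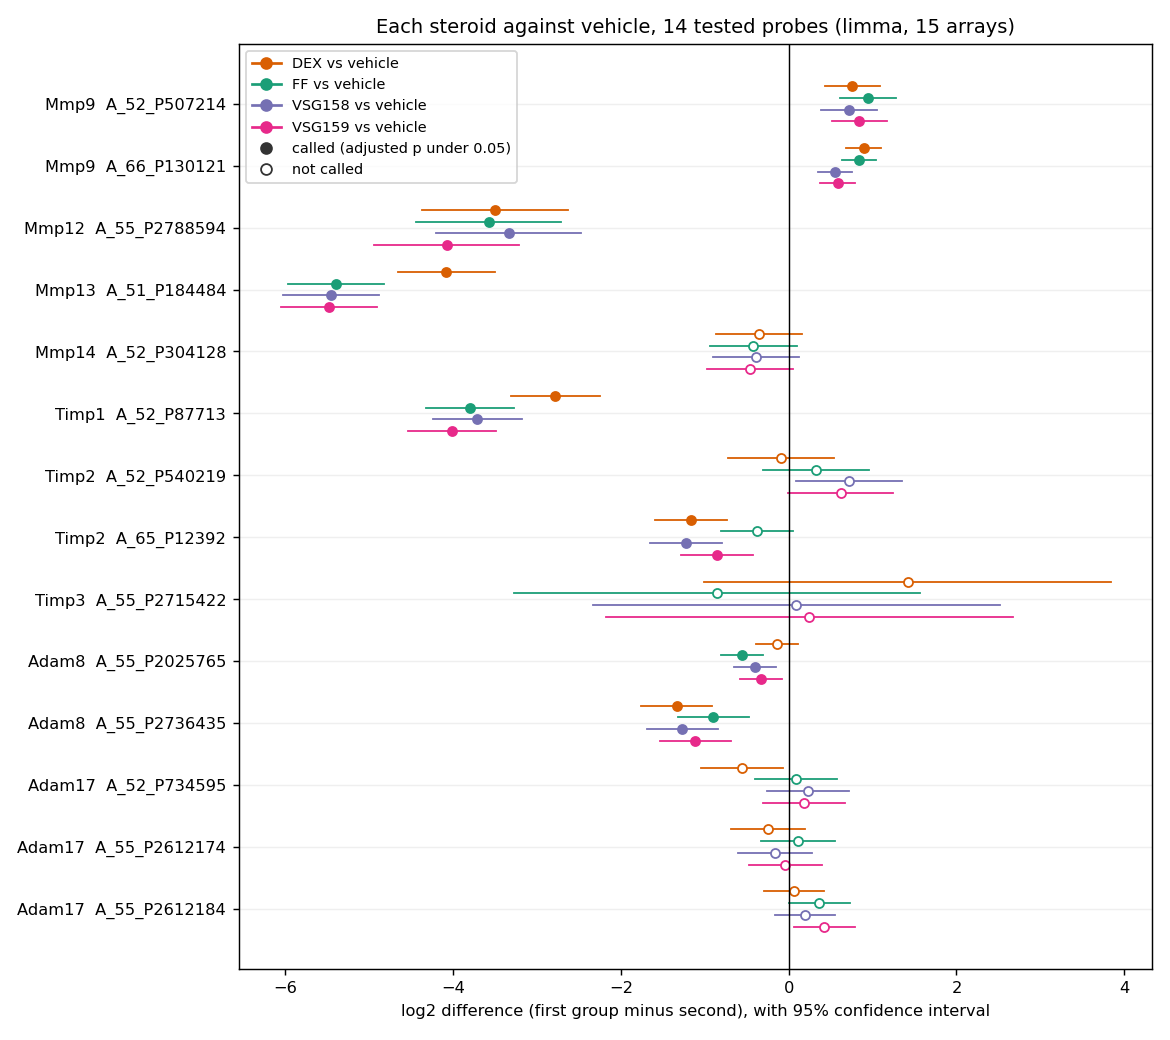
Log2 difference from vehicle (x axis, with its 95% confidence interval from limma) of the 14 tested probes (y axis) for the 4 steroids; filled points were called. Mmp13 (-4.08 to -5.48) and Timp1 (-2.78 to -4.01) lie far to the left with each steroid, and both Mmp9 probes lie to the right.

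The compounds were then compared with one another at their shared dose of 100 nM and time, in 6 pairs, each tested with its p-values adjusted over all tested probes. FF differed from DEX at 3 of 14 member probes, 1 higher and 2 lower, where 4.27% of all probes were called, 2.36% higher and 1.91% lower. VSG158 differed from DEX at 1 probe, lower, with 2.39% of all probes called and 0.923% called lower. VSG159 differed at 2, both lower, with 4.77% called and 3.03% called lower. All such calls sit on Mmp13, Timp1 and 1 Timp2 probe, and the 3 comparisons share the DEX arrays.

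Mmp13 was lower than with DEX, with differences of -1.31 ± 0.26 (log2, SE) for FF, -1.37 for VSG158 and -1.40 for VSG159 (adjusted p = 0.0219, 0.0215 and 0.0157). These calls were fragile. The FF call was lost in 9 of 30 settings, among them slide 2 alone, which holds both groups (-1.31, adjusted p = 0.0596), and with DEX replicate 1 left out (-1.22, adjusted p = 0.0881) or FF replicate 1 (-1.03, adjusted p = 0.0763). The VSG158 and VSG159 calls were lost with slide as a fixed block (-1.04 and -1.19, adjusted p = 0.219 and 0.104). The sign held in each setting.

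Timp1 was lower than with DEX, with differences of -1.02 ± 0.24 (log2, SE) for FF and -1.23 for VSG159 (adjusted p = 0.0407 and 0.0184), while VSG158 differed by -0.93 (adjusted p = 0.0716). The FF call was lost in 14 of 30 settings, including each DEX or FF array left out (-0.87 to -1.15). With slide as a fixed block the VSG159 difference was -0.72 (adjusted p = 0.162) and the VSG158 difference -0.16. Timp2 probe A_65_P12392 was higher with FF than with DEX by 0.79 (adjusted p = 0.0463), a call kept in 12 of 30 settings.

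Other differences from DEX missed the threshold. Adam8 probe A_55_P2025765 was at -0.42 with FF (95% confidence interval -0.67 to -0.17, adjusted p = 0.0606). It was called in 4 of 30 settings, among them slide as a fixed block (adjusted p = 0.0308). Adam8 probe A_55_P2736435 went the other way, at 0.44 with FF (adjusted p = 0.206). Mmp9 probe A_66_P130121 was at -0.34 with VSG158 (95% confidence interval -0.55 to -0.13) and at -0.31 with VSG159 (-0.52 to -0.10), with adjusted p of 0.0877 and 0.0813. Adam17 probe A_52_P734595 was at 0.65, 0.80 and 0.74 with FF, VSG158 and VSG159 (adjusted p = 0.118, 0.0909 and 0.0768), and the arrays of each lay above all DEX arrays. The arrays did not overlap at 8 of 14 member probes for FF against DEX, where 38.2% of all probes did not.

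The other 3 pairs gave 0 calls among the members and 0 among all tested probes with limma. At an unadjusted p under 0.05, 2 of 14 member probes passed for VSG158 against FF (7.32% of all probes), 2 for VSG159 against FF (5.57%) and 0 for VSG158 against VSG159 (5.77%). A missed threshold does not show that the compounds act alike. For Mmp13 the 95% confidence interval was -0.63 to 0.52 for VSG158 minus FF and -0.54 to 0.61 for VSG158 minus VSG159. For Timp1 these intervals were -0.44 to 0.62 and -0.23 to 0.83. VSG158 and FF shared no slide, and with slide as a fixed block the Timp1 difference was 0.86 (adjusted p = 0.368), outside the first of these intervals. Timp2 probe A_65_P12392 was at -0.84 for VSG158 minus FF (-1.27 to -0.42, adjusted p = 0.667), a difference called with p-values adjusted over all 10 contrasts together (adjusted p = 0.00891) and without VSG158 replicate 1 (-1.11, adjusted p = 0.0181). For VSG159 minus FF it was at -0.48 (-0.91 to -0.05, adjusted p = 0.866). For Mmp9 probe A_66_P130121, VSG158 minus FF was -0.29 (-0.49 to -0.08, adjusted p = 0.667).

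**Figure D3:**
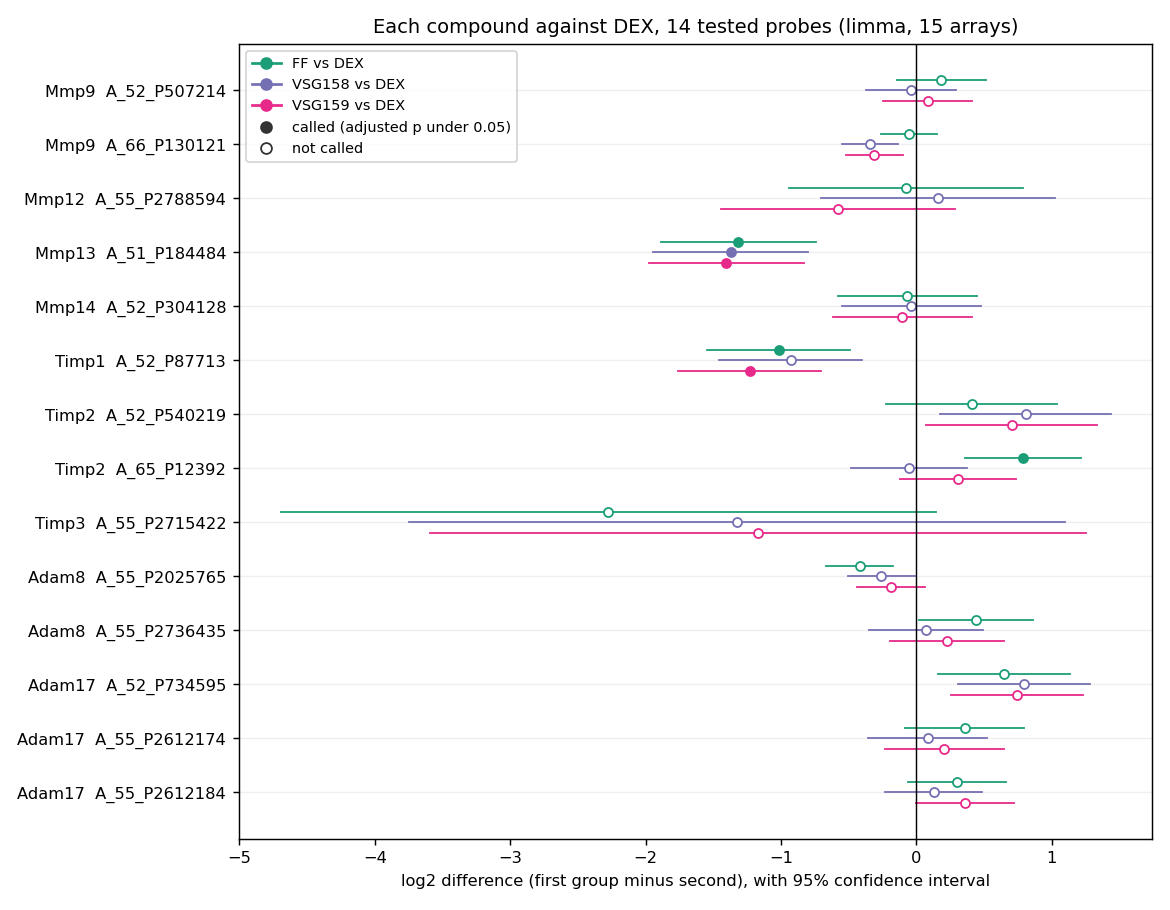
Log2 difference from DEX (x axis, with its 95% confidence interval from limma) of the 14 tested probes (y axis) for FF, VSG158 and VSG159; filled points were called. Mmp13 and Timp1 lie between -0.93 and -1.40, and most other intervals include 0.

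The genes whose levels ran most like a member's over the 15 arrays were found by Pearson's r among 12580 genes; these are descriptions, the arrays sharing groups and slides. Timp1 ran most like Vegfa, Il1f6 and Pcgf5 (r = 0.995 each). Mmp13 ran most like Cd83 (0.993), Casp1 and Ddx58 (0.992 each), and Mmp12 most like Ifnb1 (0.975), Hamp and Carmil1 (0.974 each). Mmp9 ran most like Osbpl2 (0.954), Adam8 like Ctnna1 (0.961), Timp2 like Clvs1 (0.931), Adam17 like Senp1 (0.956) and Mmp14 like Eloa (0.874). With 5 groups of 3, a shared step between vehicle and steroids is enough for a high r.

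Further genes of the pathway were read from 6 lists, with each gene represented by its brightest tested probe; of all genes, 46.4% were called with DEX (23.2% higher, 23.1% lower), 42.2% with FF (20.8% and 21.4%), 44.4% with VSG158 (19.7% and 24.6%) and 44% with VSG159 (19.1% and 24.9%). Of 18 other MMPs, 5 were tested. Mmp8, the neutrophil collagenase, rose by 3.06 to 3.81 (log2) over the 4 steroids, and Mmp19 rose by 1.67 to 1.99. Mmp17 was called lower with each steroid. It was above background on all 3 vehicle arrays, on none with DEX or VSG158 (at least 1.64- and 1.38-fold lower), and on 1 of 3 with FF and with VSG159, where the fitted -1.12 and -1.33 rest partly on background. Mmp25 fell from 2 of 3 vehicle arrays above background to 0 of the 12 steroid arrays. Its bounds were at least 1.02-, 1.24- and 1.46-fold lower with DEX, FF and VSG159, and none could be given for VSG158. Mmp28 fell with DEX (-0.87), FF (-0.46) and VSG159 (-0.48), and its VSG158 difference of -0.44 missed the threshold (adjusted p = 0.0542). The collagenases Mmp8 and Mmp13 thus moved in opposite directions. The list's median was -0.87 with DEX and -0.44 with VSG158, where all genes had 0.03 and -0.06.

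Of 22 other ADAM and ADAMTS proteases, 9 were tested, with 3 higher and 2 lower with DEX and 1 higher and 2 lower with each other compound. Adamts1, which cleaves proteoglycans, fell with each steroid (-2.25 to -2.78, log2), and Adamts4, an aggrecanase, fell with DEX (-0.65) and with the other 3 (-1.25 to -1.61). Adam9 rose by 0.55 to 1.06 with each. Adam10, a sheddase related to Adam17, rose by 0.60 with DEX and was not called with the other 3 (0.04 to 0.28). The list's median was -0.11 with DEX and 0.06 with FF.

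Among 17 inhibitors, activators and partners, 13 were tested, with 3 higher and 5 lower under DEX and under FF, and 3 higher and 6 lower under VSG158 and VSG159. Frmd8, which stabilises the ADAM17 complex, fell with each steroid (-0.64 to -0.85, log2). So did Lrp1, an endocytic receptor that clears proteases (-1.08 to -1.48), and Cd44, a docking site for Mmp9 (-0.56 to -0.96). Sdc4, a cell surface proteoglycan, rose by 0.76 to 1.01. Rhbdf2, a maturation partner of ADAM17, fell with FF, VSG158 and VSG159 (-0.44 to -0.67) and was at 0.16 with DEX, not called. The list's median was 0.05 with DEX and -0.34 and -0.36 with FF and VSG158.

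Of 19 substrates shed by ADAM17 or ADAM8, 14 were tested; 4 rose and 3 fell with DEX, 3 and 6 with FF, 4 and 4 with VSG158, and 3 and 7 with VSG159. Tnfrsf1b, the second TNF receptor, fell with each steroid (-0.40 to -0.89, log2), as did Hbegf, a growth factor of the EGF family (-1.75 to -2.22). Csf1r, the receptor for the macrophage growth factor, rose by 1.14 to 1.47. Mertk, a receptor for dying cells, rose by 4.09 to 4.41 from a vehicle group in which 1 of 3 arrays was above background. Tnf itself was at -0.31 with DEX, not called (adjusted p = 0.0519), and fell with FF, VSG158 and VSG159 (-0.46, -0.65 and -0.63). The list's median was -0.15 with DEX and -0.51 with VSG159.

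Among 18 matrix substrates, 9 were tested, with 1 higher and 4 lower with DEX, VSG158 and VSG159, and 1 higher and 3 lower with FF. Tnc, the matrix glycoprotein tenascin C, was above background on all 3 vehicle arrays and on none of 12 steroid arrays, at least 36.9-fold lower with DEX, 45.0-fold with FF, 32.1-fold with VSG158 and 53.0-fold with VSG159. Col4a2, a chain of collagen IV, showed the same pattern at bounds of 1.61, 1.96, 1.40 and 2.31-fold. Eln, elastin, was likewise above background only on vehicle arrays. Its bounds were low, at least 1.09-, 1.32- and 1.56-fold lower with DEX, FF and VSG159, and none could be given for VSG158. Dcn, a small proteoglycan, rose by 0.66 to 1.23 (log2). The list's median was -0.12 with DEX and -0.61 with FF.

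Of 14 cathepsins, the lysosomal proteases, 12 were tested, and 7 fell with DEX, 8 under FF, 8 under VSG158 and 7 under VSG159, while 1 rose with FF and with VSG158. The falls over the 4 steroids were -0.75 to -1.18 (log2) for Ctsh, -0.32 to -0.94 for Ctsc, -0.57 to -0.64 for Ctss and -0.37 to -0.58 for Ctsd. Ctsf was the gene that rose (0.57 and 0.49). The list's median was -0.52, -0.47, -0.57 and -0.58 over the 4 steroids.

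**Figure D4:**
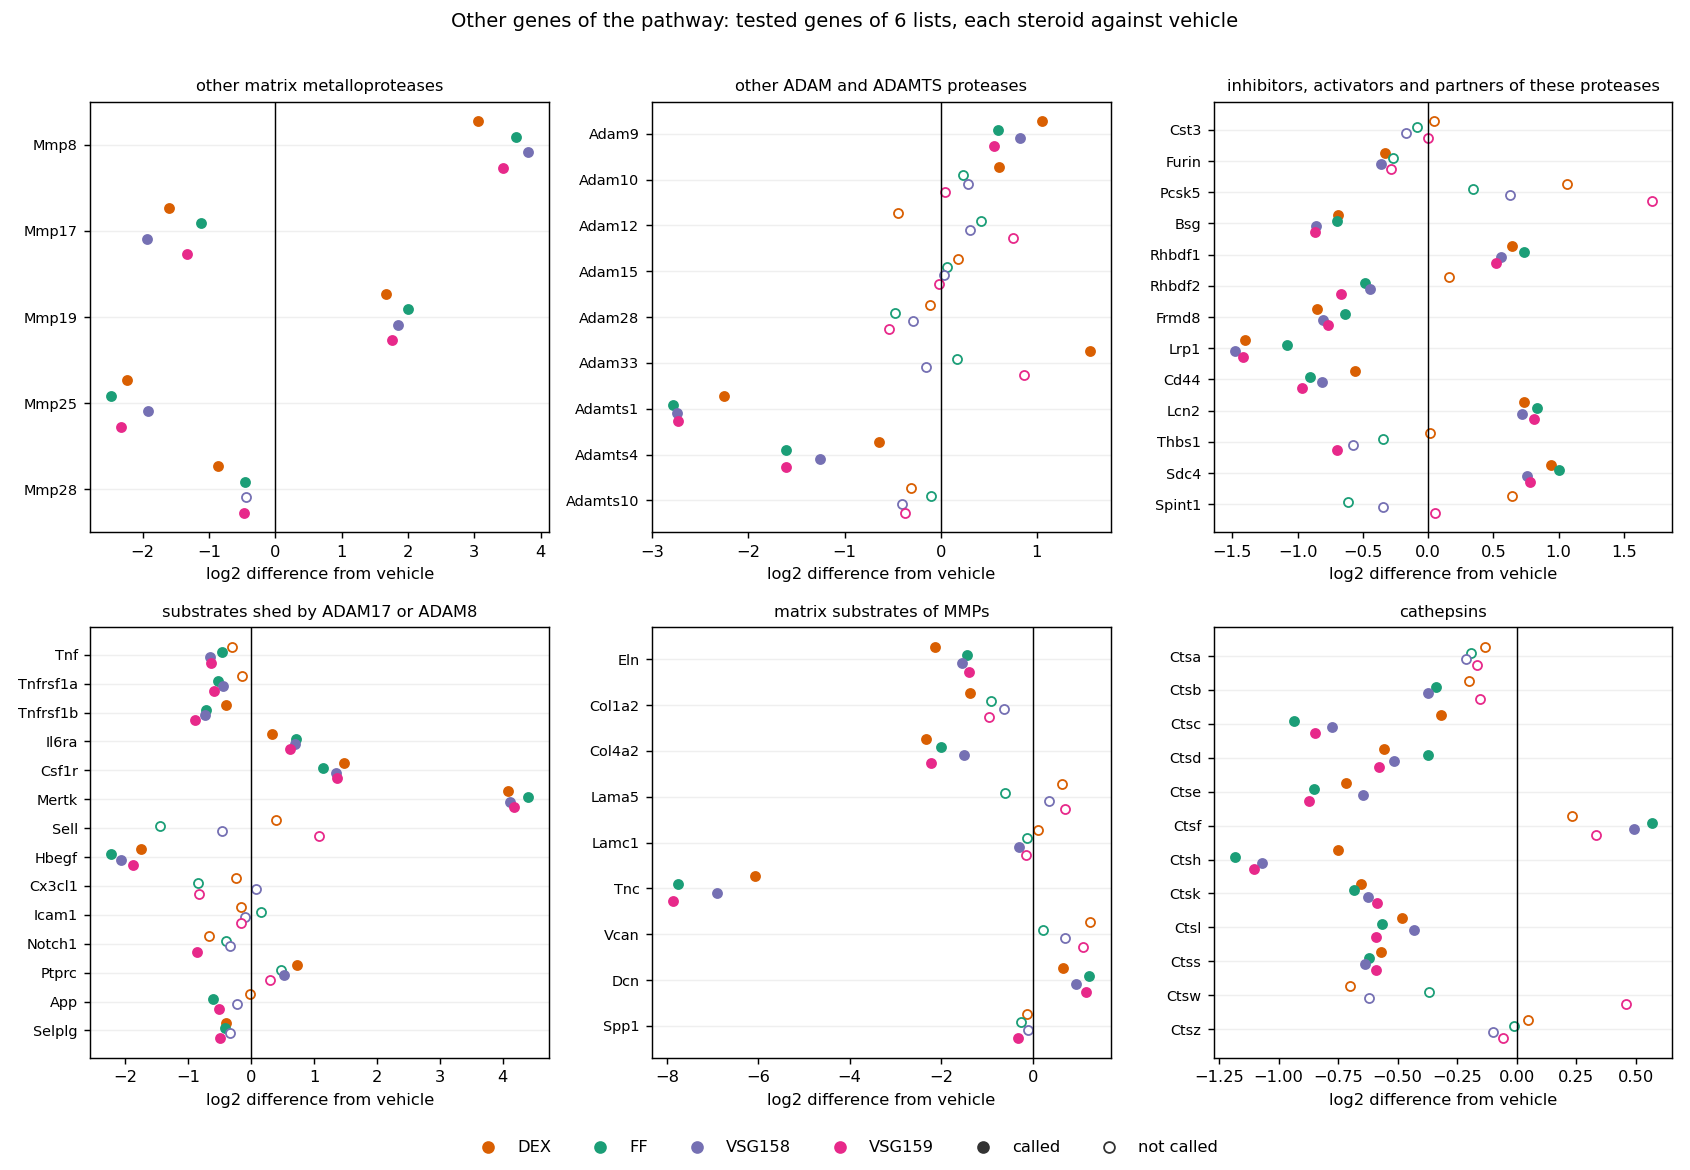
Log2 difference from vehicle (x axis) of the tested genes (y axis) of 6 related lists, 1 point per steroid; filled points were called, and each panel has its own x axis. Mmp8 and Mmp19 lie to the right, Adamts1 and Tnc to the left, and the cathepsins lie mostly between 0 and -1.18.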

How the data were processed

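One-colour arrays were scanned by the authors with Feature Extraction 10.7.3.1, per the file headers, on a design whose coordinates are of mm9. The deposited scanner files hold, per spot, a processed intensity, background-subtracted and detrended within 1 array, and the raw mean and local background intensity, per the file headers. The deposited value table holds log2 values with nearly the same median on each array (5.94 to 5.99 over noncontrol probes) and r of 0.988 to 0.994 with the log2 processed signal; its normalization is not given in the sources used here, limma is named, with no version, per the submitters' processing notes, and it served here as an alternative.

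Control spots (3671 of 62976) were left out, outlier spots set to missing and spots of a probe averaged. Each array's 75th percentile was subtracted from its log2 processed signals, which were fitted with limma 3.58.1 in R 4.3.3, all 15 arrays, group as the only term (residual degrees of freedom 10). The 10 contrasts were two-sided and Benjamini-Hochberg adjusted within each over all tested probes. An exact test of 3 arrays against 3 cannot go below 0.1. The members and lists, the rule for naming (every member probe, up to 4 examples per list by smallest adjusted p against vehicle, 3 most similar genes per member) and the tests were chosen with earlier results of these data known. Rhbdf2, Mmp28, Tnf and Ctsf were named after their values were seen. Files were read with pandas 2.3.3 (Python 3.11.15), and figures drawn with matplotlib 3.10.9. The fit was tested on simulated data, whose settings and outcome are not given here. Alternatives were other scalings, normexp (offset 50), the deposited values, other filters, outlier spots kept, 1 probe a gene, fewer groups, slide and replicate blocks, adjustment over all contrasts and each array left out.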

Additional observations from a re-analysis of the deposited data

How the results depend on the processing

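Over 140 comparisons of a member probe between 2 groups, 4056 values came from another setting; 112 lost a call, 50 gained one, 0 reversed a called direction, and 171 turned sign where neither value was called. The counts of called member probes moved as follows, the cause not being tested. The share of all tested probes called in each setting, or with an array left out, is not given in this section. These moves are therefore no result about the members. Median centring gave 5 for VSG158 against vehicle and 0 for FF, VSG158 and VSG159 against DEX. Without a filter on dim probes, which raises the number of tests, these 3 comparisons with DEX gave 0 as well. Quantile normalization gave 1 for FF against DEX, and for VSG158 against DEX normexp gave 3 and the deposited values 2. Fits of only the 2 groups, or with slide as a fixed or a random block, gave 0 for VSG158 and VSG159 against DEX. With either slide block, Adam8 probe A_55_P2025765 gained a call for FF against DEX (adjusted p = 0.0308 and 0.0387). Adjustment over all 10 contrasts together gave 4 for VSG158 and 4 for VSG159 against DEX and 1 for VSG158 against FF. Slide with array position, chosen after seeing the data, gave 0 for DEX, 3 for FF and 3 for VSG159 against vehicle, and 0 for FF, VSG158 and VSG159 against DEX.

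The replicate numbers did not pair the arrays: correlations of same-numbered deviations ran from -0.53 to 0.29, and 1 of 15 arrays correlated best with its own number. With the replicate block, FF against DEX had 1 call in place of 3.

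Leaving out 1 array at a time gave 7 to 10 calls for DEX, 7 to 8 for FF, 8 to 9 for VSG158 and 7 to 9 for VSG159 against vehicle. It gave 0 to 4 for FF, 0 to 2 for VSG158 and 0 to 3 for VSG159 against DEX, 0 to 1 for VSG158 against FF, and 8 to 10 for the F test over 5 groups. Mmp12 and Timp3 are limited by signals at background, and Mmp13 and both Timp2 probes are so in part.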

Other observations

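Among the cell type markers, some macrophage genes changed against vehicle while the list stayed above background throughout. With DEX 4 of 12 rose and 4 fell, with FF 3 and 5, with VSG158 4 and 5, and with VSG159 3 and 4. Of all genes, 23.2% rose and 23.1% fell with DEX, 20.8% and 21.4% with FF, 19.7% and 24.6% with VSG158, and 19.1% and 24.9% with VSG159. Itgam, an integrin chain of myeloid cells, rose by 0.95 to 1.00 (log2) over the 4 steroids. Fcgr1, the high-affinity IgG receptor, fell (-1.22 to -1.78), as did Aif1, an actin-binding protein of macrophages (-1.27 to -1.52).

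RAW264.7 cells can form osteoclasts, which use several of these proteases on bone. Of 9 osteoclast markers 8 were tested, and with DEX 1 rose and 3 fell, with FF 0 and 2, and with VSG158 and VSG159 0 and 3. Ctsk, the collagen-degrading cathepsin of osteoclasts, fell with each steroid (-0.59 to -0.68, log2), as did Atp6v0d2, a proton pump subunit (-0.84 to -1.45). Acp5, the tartrate-resistant phosphatase, rose with DEX (0.42) and was at 0.26 to 0.30 with the other 3, not called, and Ocstamp, needed for cell fusion, was at 0.65 to 1.45, not called. The summed linear level of the osteoclast markers was 17.8 to 23.9 on the vehicle arrays, 27.2 to 31.6 with DEX, and 21.4 to 30.8 with the other 3 compounds. Of 3 tested T cell markers, Cd3d was called lower with each steroid. It was above background on all 3 vehicle arrays, on none with DEX (at least 2.96-fold lower) and on 1 of 3 with each other compound, where the fitted -1.74 to -1.90 rest partly on background. Cd3e and Cd4 were not called. The 2 tested neutrophil or mast cell markers, Elane and S100a8, were not called. Of the 2 tested fibroblast markers, Dcn rose with each steroid. Col1a2 was above background on 2 of 3 vehicle arrays and on none with DEX, where it was called lower, by at least 1.10-fold. These lists were chosen with earlier results known.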
